A study of Mus musculus with 6 samples.

Results

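Hedgehog signalling was followed through 9 genes in RNA-seq of sorted epidermal cells from newborn mice: the ligand gene Shh, the receptor and feedback genes Ptch1 and Hhip, the transducer Smo, the co-receptors Gas1 and Boc, and the transcription factors Gli1, Gli2 and Gli3. They were chosen by name, and all 9 were found among the 17025 genes of the deposited table. The cells carried integrin α6, the receptor that fixes basal keratinocytes to the basement membrane, and came from mice at postnatal day 0. There were 3 libraries labelled cKO, from animals with K14Cre and both alleles of Ash2l floxed (K14Cre,Ash2lF/F), and 3 labelled control, from animals with K14Cre and 1 floxed allele (K14Cre,Ash2lF/+). Both groups therefore carried the Cre transgene, driven by the promoter of the basal keratin gene Krt14, and no group without Cre was analysed here. Ash2l encodes a core subunit of the complexes that methylate histone H3 at lysine 4.

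In Hedgehog signalling a secreted ligand binds PTCH1, which otherwise holds SMO inactive, and SMO then acts through the primary cilium on the GLI proteins. GLI2 is mainly an activator, GLI3 mainly a repressor, and GLI1 is an activator whose own gene is a target, so Gli1, Ptch1 and Hhip are used as readouts of the pathway. In skin SHH made by the epithelium of the hair placode signals to that epithelium and to the underlying dermal condensate, and it is required for the follicle to grow down.

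The targeted gene went against the labels, so the groups are called by their labels and each direction below rests on them. The deposited table heads the columns of the libraries labelled control with the letter C and those labelled cKO with W, letters that no source used here explains, and whether the labels were exchanged was not tested. Ash2l measured 30.9, 29.5 and 22.9 FPKM (fragments scaled by the gene model's length and by library size) in the libraries labelled cKO 1, 2 and 3, against 12.4, 18.1 and 15.9 FPKM in those labelled control 1, 2 and 3. The log2 difference was 0.81 (SE 0.19, limma adjusted p = 0.0240), with the same sign in all 17 alternatives tried; the call was lost without cKO 1, cKO 2, control 1 or control 3 (adjusted p of 0.0564 to 0.0828), with the replicate block (adjusted p = 0.0613) and without cKO 3 with the fibroblast marker term (adjusted p = 0.0549). A level over the whole gene does not show whether the floxed part was read. The libraries held 31578875 to 36027550 fragments. The library labelled cKO 3 stood apart from cKO 1 and 2: its root mean square distance to them in log2(FPKM + 1) was 0.62 and 0.61, against 0.22 between cKO 1 and cKO 2. The basal keratin genes were abundant in every library, with Krt5 at 2249 FPKM or more and Krt14 at 1683 FPKM or more. The suprabasal keratin gene Krt10 measured 18346 to 36869 FPKM in the cKO-labelled libraries, above Krt5 in each, against 1693 to 2489 FPKM in the control-labelled ones. Of the basal markers, the integrin genes Itgb1 and Itgb4 were called lower and Krt15 higher. The libraries thus held suprabasal as well as basal transcripts. Whether the replicates are different mice is not stated, so the p-values cover only the spread among these libraries, which may be technical.

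Against the libraries labelled control, Gas1 and Shh rose and Boc fell in the libraries labelled cKO, so 2 of the 9 genes were higher and 1 lower. The test was limma on log2(FPKM + 1) over the 11603 genes averaging 1 FPKM or more, which all 9 did, with Benjamini-Hochberg adjustment and a call under 0.05. Over all genes tested 5.87% were called higher and 13.6% lower, 19.5% in all. The median difference over all genes was -0.17 on the log2 scale, and 0.01 after median of ratios scaling, under which Shh, Ptch1 and Gas1 were called higher and none of the 9 lower (2 lower at an unadjusted p under 0.05), with 8.6% of all genes higher and 9.08% lower. Limma-voom, on whole fragments recovered from the FPKM steps, called the same 3 of the 9, with 8.01% of all genes higher and 8.91% lower. The libraries of the groups did not overlap for 4 of the 9 (Shh, Gas1, Boc and Gli3), a share close to the 42.9% of all genes tested. Shh and Gas1 lay above the controls in every library labelled cKO, as did 12% of all genes, and Boc and Gli3 below, as did 30.9%. A two-sided exact permutation test of these 4 gave p = 0.1 each, the lower limit with 3 libraries against 3.

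**Figure D1:**
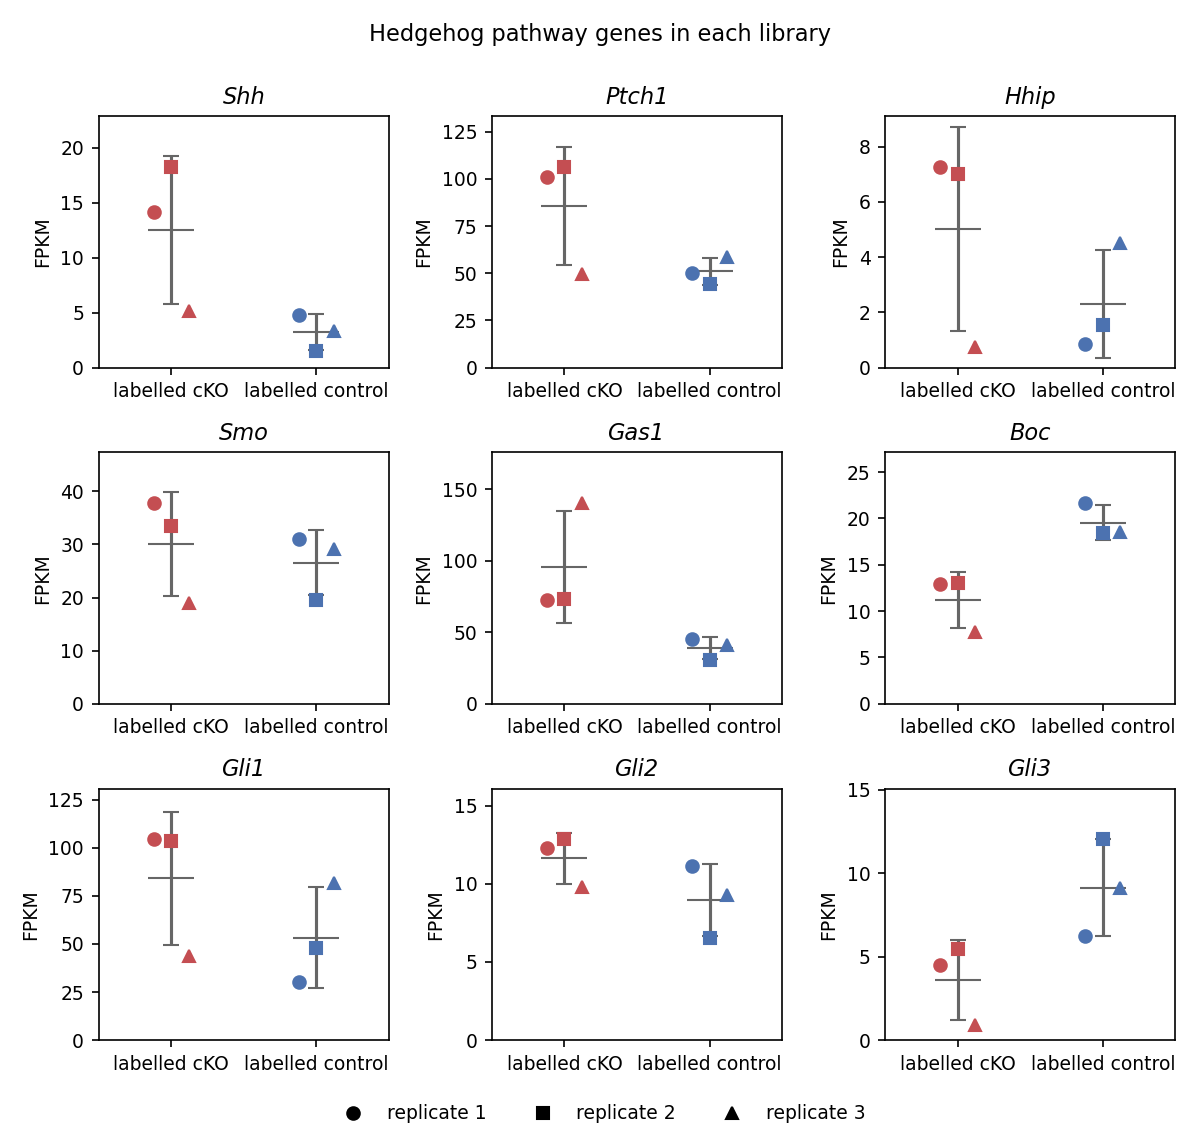
FPKM of each gene (y axes, each from 0) in the 3 libraries labelled cKO and the 3 labelled control, with symbols for the replicate number, a horizontal bar for the mean and whiskers for the SD. Shh and Gas1 lie higher and Boc and Gli3 lower in every library labelled cKO, while the library labelled cKO 3 stands below cKO 1 and 2 for every gene but Gas1.

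FPKM is a level per length, so the 9 genes can be ranked within each group. In the libraries labelled cKO the means ran from Gas1 (95.5 FPKM), Ptch1 (85.8) and Gli1 (84.1) through Smo (30.1), Shh (12.5), Gli2 (11.6) and Boc (11.2) to Hhip (5.02) and Gli3 (3.59 FPKM). In the libraries labelled control they ran from Gli1 (53.4 FPKM), Ptch1 (51.0) and Gas1 (39.0) through Smo (26.6), Boc (19.5), Gli3 (9.14) and Gli2 (8.98) to Shh (3.24) and Hhip (2.30 FPKM). The same 4 genes led in both groups, with Gas1 first under the label cKO and Gli1 first under the label control. The order among the others differed as well. The median gene tested averaged 10.9 FPKM over the 6 libraries. Neighbours in these orders overlapped in their libraries, except Gli1 and Smo, Smo and Shh, and Boc and Hhip in the libraries labelled cKO, and Boc and Gli3, and Gli2 and Shh in those labelled control.

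The ligand gene Shh rose. It measured 14.1, 18.3 and 5.13 FPKM in the libraries labelled cKO 1, 2 and 3, against 4.82, 1.55 and 3.34 FPKM in those labelled control 1, 2 and 3. The groups did not overlap, but cKO 3 exceeded the highest control, control 1, by little. The means were 12.5 ± 6.73 FPKM in the libraries labelled cKO and 3.24 ± 1.64 FPKM in those labelled control (SD, n = 3 each). The log2 difference was 1.60 (SE 0.47, limma adjusted p = 0.0491), just inside the threshold. In control 2 it rested on 147 fragments, the smallest number for any of the 9 genes in any library. The call was lost without any library except cKO 3 (adjusted p of 0.0634 to 0.149) and with a pseudocount of 0.1 (adjusted p = 0.0535). Without cKO 3 the difference was 2.09 (SE 0.35, adjusted p = 0.0104).

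The other ligand genes, Ihh and Dhh, were at or close to 0: the highest value was 0.0364 FPKM for Ihh and 0.0294 FPKM for Dhh, both in libraries labelled cKO. Hhat, whose product attaches palmitate to the ligand, measured 0.929, 0.815 and 0.465 FPKM in the libraries labelled cKO, against 1.14, 1.42 and 0.564 FPKM in those labelled control, below the level tested. Disp1, needed for release of the ligand, was at 0.69 (SE 0.32, adjusted p = 0.171). Without cKO 3 it was called higher (1.02, adjusted p = 0.0284).

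The receptor gene Ptch1 was about as high in cKO 3 as in the controls. It measured 101, 107 and 49.8 FPKM in the libraries labelled cKO 1, 2 and 3, against 50.2, 44.3 and 58.6 FPKM in those labelled control 1, 2 and 3. In cKO 1 and 2 it lay far above all controls, and cKO 3 lay between control 1 and control 2. The means were 85.8 ± 31.3 FPKM in the libraries labelled cKO and 51.0 ± 7.15 FPKM in those labelled control (SD, n = 3 each), and the log2 difference of 0.67 (SE 0.28) did not pass the test (limma adjusted p = 0.139). It passed with median of ratios scaling (0.87, adjusted p = 0.0433), in limma-voom (0.88, adjusted p = 0.0405) and without cKO 3 (1.02, SE 0.14, adjusted p = 0.00534).

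Hhip, which encodes a membrane protein that binds and sequesters the ligand, was the most variable of the readouts. It measured 7.28, 7.02 and 0.752 FPKM in the libraries labelled cKO 1, 2 and 3, against 0.855, 1.53 and 4.52 FPKM in those labelled control 1, 2 and 3. The lowest of the 6 was cKO 3 and the third highest was control 3, so the range of the controls lay inside that of the libraries labelled cKO. The log2 difference was 0.72 (SE 0.65, limma adjusted p = 0.466), and 1.46 (SE 0.44, adjusted p = 0.0628) without cKO 3. Smo measured 37.8, 33.4 and 19.0 FPKM in the libraries labelled cKO 1, 2 and 3, against 30.9, 19.6 and 29.2 FPKM in those labelled control 1, 2 and 3. The groups overlapped (0.14, SE 0.28, adjusted p = 0.749), and the sign turned to -0.04 without cKO 1 and to -0.05 without control 2.

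The co-receptors GAS1 and BOC both help PTCH1 bind the ligand, and their genes went in opposite directions. Gas1 rose, with 72.5, 73.5 and 140.5 FPKM in the libraries labelled cKO 1, 2 and 3, against 45.3, 30.3 and 41.4 FPKM in those labelled control 1, 2 and 3. It was highest in cKO 3, unlike every other gene of the 9. The means were 95.5 ± 39.0 FPKM in the libraries labelled cKO and 39.0 ± 7.78 FPKM in those labelled control (SD, n = 3 each), a log2 difference of 1.22 (SE 0.28, limma adjusted p = 0.0217). Gas1 was called in 14 of the 17 alternatives tried and lost its call without control 2 (adjusted p = 0.0802), without control 3 (adjusted p = 0.0608) and with no filter on low values (adjusted p = 0.0510).

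Boc fell, with 12.9, 13.0 and 7.74 FPKM in the libraries labelled cKO 1, 2 and 3, against 21.7, 18.4 and 18.5 FPKM in those labelled control 1, 2 and 3. The means were 11.2 ± 3.02 FPKM in the libraries labelled cKO and 19.5 ± 1.86 FPKM in those labelled control (SD, n = 3 each), and the log2 difference was -0.78 (SE 0.22, limma adjusted p = 0.0427). The call was lost with median of ratios scaling (-0.59, adjusted p = 0.0639), in limma-voom (-0.63, adjusted p = 0.0568) and without any library except cKO 3 (adjusted p of 0.0624 to 0.106). Within a library, where no scaling between libraries enters, the ratio of Gas1 to Boc came to 5.60, 5.66 and 18.2 in the libraries labelled cKO 1, 2 and 3, against 2.09, 1.65 and 2.23 in those labelled control 1, 2 and 3. The ratios given here and for the Gli genes were chosen after their values were seen and are a description. The third co-receptor gene, Cdon, was low and not called, at 2.14, 2.41 and 0.627 FPKM in the libraries labelled cKO 1, 2 and 3, against 4.37, 1.78 and 2.24 FPKM in those labelled control 1, 2 and 3 (-0.49, SE 0.37, adjusted p = 0.379).

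None of the 3 Gli genes was called by limma, and their mix differed between the libraries. Gli1 measured 105, 104 and 43.9 FPKM in the libraries labelled cKO 1, 2 and 3, against 29.998, 48.1 and 82.0 FPKM in those labelled control 1, 2 and 3. Control 3 lay above cKO 3 and below cKO 1 and 2, and the log2 difference was 0.66 (SE 0.43, limma adjusted p = 0.312), or 1.07 (SE 0.37, adjusted p = 0.0892) without cKO 3. Gli2 varied least of the 3, with 12.3, 12.9 and 9.78 FPKM in the libraries labelled cKO 1, 2 and 3, against 11.1, 6.53 and 9.27 FPKM in those labelled control 1, 2 and 3 (0.36, SE 0.22, adjusted p = 0.284). Gli3 measured 4.47, 5.43 and 0.875 FPKM in the libraries labelled cKO 1, 2 and 3, against 6.24, 12.1 and 9.13 FPKM in those labelled control 1, 2 and 3. Every library labelled cKO lay below every control, and the log2 difference was -1.29 (SE 0.47, adjusted p = 0.0921), or -0.73 (SE 0.27, adjusted p = 0.105) without cKO 3.

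An unadjusted p under 0.05 was met by 3 of the 9 genes that were higher and 2 that were lower, which adds Ptch1 and Gli3 to the 3 called. Of all 11603 genes tested, 1175 met it as higher and 2855 as lower, so the 2 lower are near the background. Gli3 made up 3.69, 4.45 and 1.60% of the summed FPKM of the 3 Gli genes in the libraries labelled cKO 1, 2 and 3, and 13.2, 18.1 and 9.10% in those labelled control 1, 2 and 3. The ratio of Gli1 to Gli3 came to 23.4, 19.1 and 50.1 in the libraries labelled cKO 1, 2 and 3, against 4.81, 3.99 and 8.98 in those labelled control 1, 2 and 3. These did not overlap, whereas the ratio of Gli1 to Gli2 did, at 8.52, 8.05 and 4.49 in the libraries labelled cKO and 2.69, 7.37 and 8.84 in those labelled control. The ratio of Ptch1 to Smo, receptor to transducer, was 2.67, 3.19 and 2.61 in the libraries labelled cKO, against 1.62, 2.26 and 2.01 in those labelled control.

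**Figure D2:**
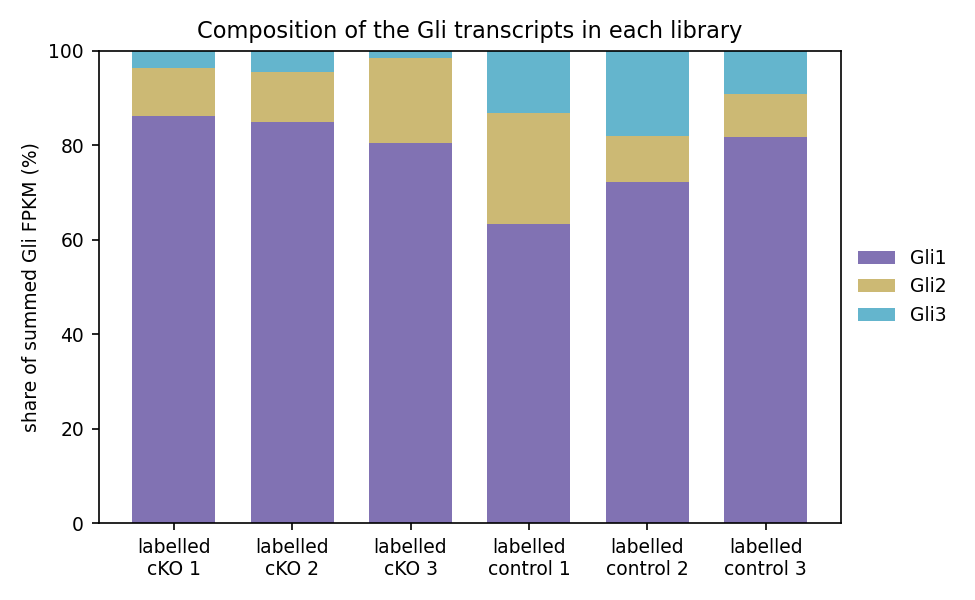
Share of the summed FPKM of Gli1, Gli2 and Gli3 taken by each (y axis, percent) in each library (x axis). Gli3 takes 1.60 to 4.45% in the cKO-labelled libraries, against 9.10 to 18.1% in the control-labelled ones.

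The promoters of 6 of the 9 genes are in the RefSeq table (GRCm38.p6; 250 bases before to 50 after the start), and those of the called gene Gas1 and of Ptch1 and Gli3, whose differences had opposite signs, are shown because methylation of histone H3 at lysine 4 is typical of promoters rich in CG. Capitals mark CG dinucleotides, and the sequences run 5′ to 3′ on the gene's strand.
Gas1 (chr13:60177486-60177785, minus strand): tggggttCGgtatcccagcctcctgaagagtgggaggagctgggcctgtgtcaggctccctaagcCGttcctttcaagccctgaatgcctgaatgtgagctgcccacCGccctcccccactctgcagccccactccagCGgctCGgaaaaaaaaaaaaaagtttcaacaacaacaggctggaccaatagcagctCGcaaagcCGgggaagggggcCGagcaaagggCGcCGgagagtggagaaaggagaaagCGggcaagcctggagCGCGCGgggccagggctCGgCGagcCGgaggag
Ptch1 (chr13:63565686-63565985, minus strand): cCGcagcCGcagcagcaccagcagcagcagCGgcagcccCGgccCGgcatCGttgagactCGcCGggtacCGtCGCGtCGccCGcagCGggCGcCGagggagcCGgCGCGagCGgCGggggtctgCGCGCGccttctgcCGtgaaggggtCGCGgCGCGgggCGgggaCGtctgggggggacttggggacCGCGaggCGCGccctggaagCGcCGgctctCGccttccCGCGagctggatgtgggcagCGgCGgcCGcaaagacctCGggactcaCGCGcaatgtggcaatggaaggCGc
Gli3 (chr13:15463473-15463772, plus strand): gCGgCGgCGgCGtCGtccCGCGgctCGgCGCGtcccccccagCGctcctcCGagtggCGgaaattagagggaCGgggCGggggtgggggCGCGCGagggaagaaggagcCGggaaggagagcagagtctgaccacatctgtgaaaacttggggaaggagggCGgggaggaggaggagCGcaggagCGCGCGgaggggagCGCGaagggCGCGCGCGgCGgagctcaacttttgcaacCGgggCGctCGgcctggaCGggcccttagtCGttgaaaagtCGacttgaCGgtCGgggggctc
Gas1 held 17 CG, Ptch1 47 and Gli3 39, against a median of 7 over 32851 promoters of the same length, of which 68.6%, 98.6% and 95.6% held fewer. Smo held 17, Gli2 28 and Hhip 30. Gas1, which was called, and Smo, which was not, had the same count. Promoters of Gli1 and of the called genes Shh and Boc were not available, so neither these counts nor the search below covers them. The GLI consensus GACCACCCA, searched on both strands, was in none of the 6 windows and in 0.253% of all promoters, and its core CCACCCA was in none of the 6 and in 9.30% of all.

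**Figure D3:**
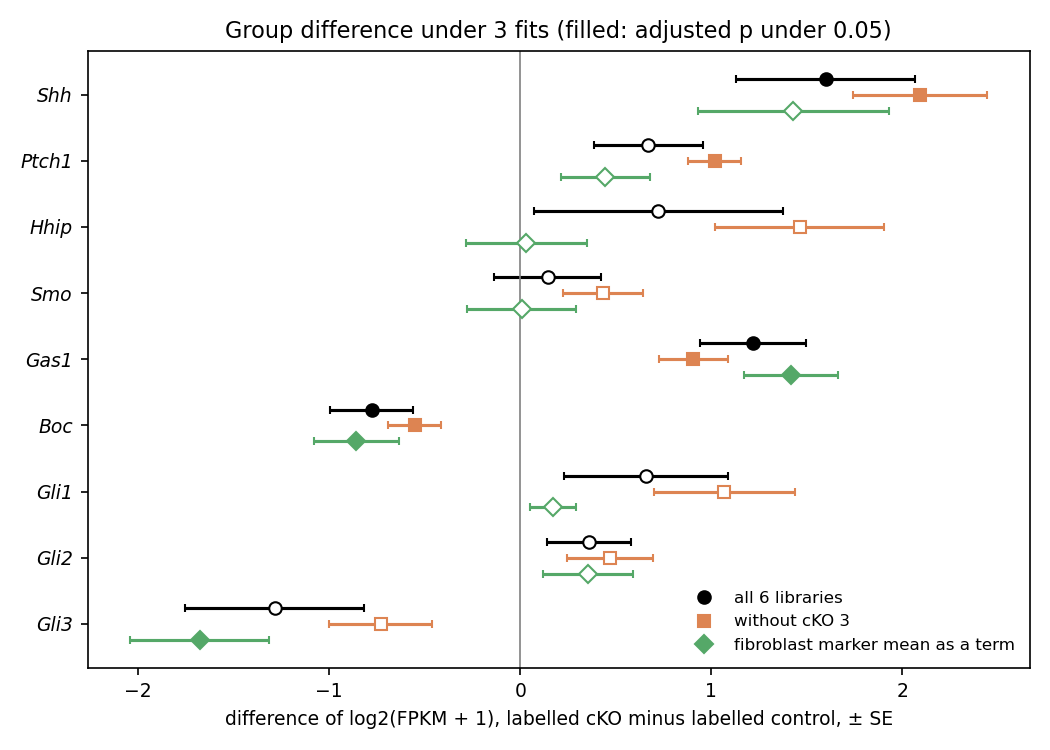
Difference of mean log2(FPKM + 1), labelled cKO minus labelled control (x axis, ± SE), for each gene in the fit of all 6 libraries, without the library labelled cKO 3 and with the fibroblast marker mean as a term; filled symbols have a limma adjusted p under 0.05. Gas1 is called in all 3 fits, Ptch1 only in the fit without cKO 3, and Gli1 and Hhip lie at 0.17 and 0.03 with the marker term.

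Without cKO 3, 3 of the 9 genes were higher (Shh, Ptch1 and Gas1) and Boc was lower, where 6.11% of all genes tested were called higher and 12.4% lower. In cKO 3 the 9 genes departed from the mean of cKO 1 and 2 by -2.22 for Hhip, -1.66 for Gli3, -1.48 for Shh, -1.23 for Gli1, -1.05 for Ptch1, -0.87 for Smo, -0.68 for Boc, -0.33 for Gli2 and 0.94 for Gas1, in log2(FPKM + 1). Over all genes tested the median of that departure was -0.19. By length of the gene model it was -0.13 for genes under 2000 bases and -0.30 for those of 8000 or more, which include Gli2, Gli3 and Hhip. The part of length or RNA quality in the members' values was not tested.

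Markers of dermal cells moved with several of the 9 genes. The 14 fibroblast markers, of which Col3a1, Col6a1 and Dcn were the most abundant, averaged in log2(FPKM + 1) 4.98, 4.83 and 3.63 in the libraries labelled cKO 1, 2 and 3, and 3.00, 3.97 and 4.77 in those labelled control 1, 2 and 3. Their summed level ranged from 308 to 795 FPKM with the label cKO and from 173 to 641 FPKM with the label control. Of the 13 tested, 1 (Fbln1) was called higher and none lower by limma, with 2 and 0 at an unadjusted p under 0.05 and 1 and 0 by limma-voom. Twist2 was listed at 0 in control 1, Mfap5 at 0 in cKO 3, control 1 and control 2, and the condensate marker Crabp1 at 0 in control 1. The 13 dermal condensate markers, of which Enpp2, Bmp4 and Rspo3 were the most abundant, had means of 3.97, 3.90 and 2.46 in the libraries labelled cKO and 2.06, 3.02 and 3.74 in those labelled control, and none was called by limma or limma-voom (2 higher and 0 lower at an unadjusted p under 0.05). In both lists, as for Gli1 and Hhip, the 3 highest libraries were cKO 1, cKO 2 and control 3. Fewer cells of a type and less RNA per cell cannot be told apart in such bulk libraries.

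With the fibroblast marker mean as a term beside group, Gli1 was at 0.17 (SE 0.12, limma adjusted p = 0.315), Hhip at 0.03 (SE 0.32, adjusted p = 0.947), Smo at 0.01 (SE 0.29) and Ptch1 at 0.45 (SE 0.23, adjusted p = 0.185). Gas1 stayed higher (1.42, SE 0.24, adjusted p = 0.00812), Boc stayed lower (-0.86, SE 0.22, adjusted p = 0.0282), and Gli3 was called lower (-1.68, SE 0.36, adjusted p = 0.0156). Shh was at 1.43 (SE 0.50) and missed the threshold (adjusted p = 0.0680). So 1 of the 9 was higher and 2 lower, where 8.16% of all genes were called higher and 23.3% lower. The marker mean was lowest in control 1 (3.00) and cKO 3 (3.63), so the term also takes up anything else that set these libraries apart. With 3 libraries per group, dermal content and such differences cannot be told apart. With that term and without cKO 3, Shh (2.38, adjusted p = 0.0266), Ptch1 (0.91, adjusted p = 0.0260) and Gas1 (1.00, adjusted p = 0.0449) were called higher, Gli1 was at 0.28 and Hhip at 0.60, and Boc at -0.43 (adjusted p = 0.104) and Gli3 at -1.01 (adjusted p = 0.0817) were not called, where 5.08% of all genes were higher and 10.1% lower.

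**Figure D4:**
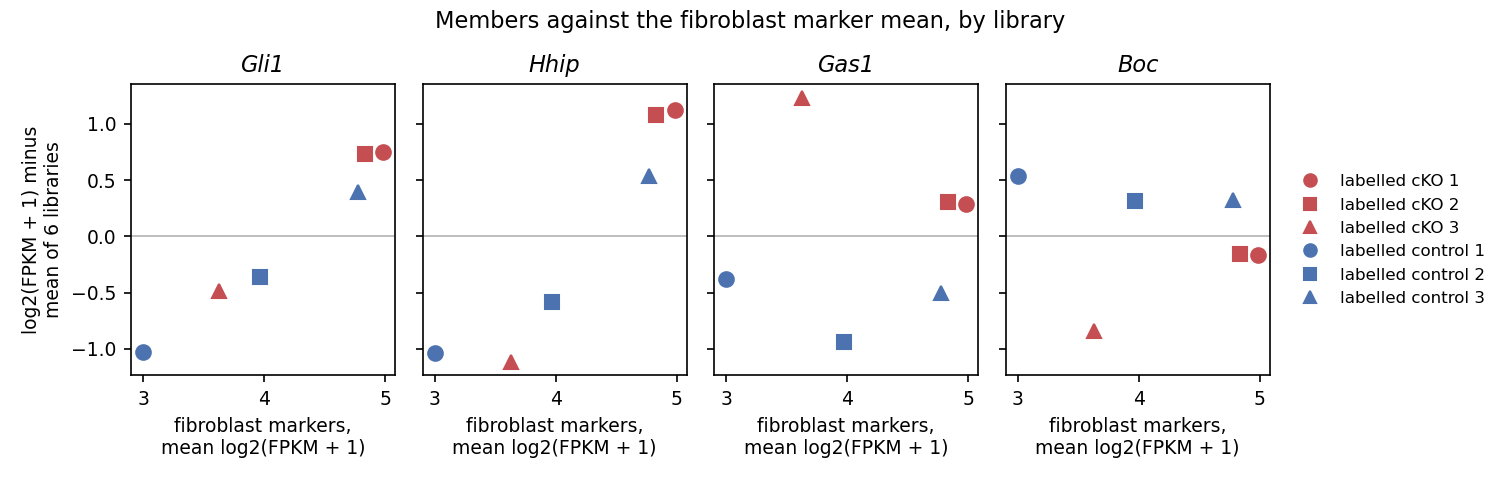
Level of Gli1, Hhip, Gas1 and Boc in each library as log2(FPKM + 1) minus the gene's mean over the 6 libraries (y axis), against the mean log2(FPKM + 1) of 14 fibroblast markers (x axis). Gli1 and Hhip are lowest in control 1 and cKO 3, whose marker means are 3.00 and 3.63, and highest in cKO 1, cKO 2 and control 3, while Gas1 is higher and Boc lower in each of the 3 libraries labelled cKO than in each control.

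Some epithelial markers of the follicle were higher. Of 16 tested genes of the placode and follicle epithelium, 5 (Foxi3, Sostdc1, Wnt10b, Barx2 and Runx1) were called higher and none lower by limma (7 and 1 at an unadjusted p under 0.05; 5 and 0 by limma-voom), where 5.87% of all genes were higher, with a median of 0.40 against -0.17 over all genes tested. All 18 genes of that list, with those too low to be tested, averaged, in log2(FPKM + 1), 3.56, 3.65 and 2.83 in the libraries labelled cKO 1, 2 and 3, and 3.10, 2.53 and 3.02 in those labelled control 1, 2 and 3, so cKO 3 lay within the range of the controls. Of 12 basal keratinocyte markers 1 was higher (Krt15) and 2 lower (Itgb1 and Itgb4), where 13.6% of all genes were lower. For these 12 an unadjusted p under 0.05 gave 1 higher and 3 lower, and limma-voom 2 and 2. Of 10 suprabasal markers 5 were higher and none lower (1 lower at an unadjusted p under 0.05 and 0 lower by limma-voom), with sums of 34676 to 67991 FPKM in the cKO-labelled libraries, against 4595 to 6455 FPKM in the control-labelled ones. All 9 melanocyte markers were lower, with sums of 174 to 373 FPKM in the cKO-labelled libraries, against 2869 to 3285 FPKM in the control-labelled ones. Itga6, the gene of the sort marker, measured 53.6, 53.0 and 19.7 FPKM in the libraries labelled cKO, against 162, 78.8 and 72.05 FPKM in those labelled control (-1.32, SE 0.44, adjusted p = 0.0710). Of the 6 endothelial markers the most abundant, Kdr, reached 5.56 FPKM in the cKO-labelled libraries and 3.64 FPKM in the control-labelled ones, while Pecam1 did not exceed 1.19 FPKM. Of the 5 immune markers listed the most abundant, Cd74, reached 1.79 FPKM in the cKO-labelled libraries and 2.63 FPKM in the control-labelled ones, while Ptprc did not exceed 0.173 FPKM. The part of these cell types in the members' differences was not tested.

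The wider pathway was followed through 46 further genes. Of 37 tested, 4 were called lower and none higher by limma (8 and 0 at an unadjusted p under 0.05; 3 lower and 3 higher by limma-voom), and the median was -0.26 against -0.17 over all genes tested. With 13.6% of all genes called lower, a count of 4 among 37 is no larger than the background. Limma-voom called 8.01% of all genes tested higher and 8.91% lower. Without cKO 3 the counts were 5 higher and 5 lower, where 6.11% of all genes were higher and 12.4% lower. With median of ratios scaling they were 1 higher and 2 lower, where 8.6% of all genes were higher and 9.08% lower. The 4 lower genes were Mgrn1 (-0.96, SE 0.15, adjusted p = 0.00548), Kif3a (-0.86, SE 0.17, adjusted p = 0.0134), Tulp3 (-0.65, SE 0.15, adjusted p = 0.0253) and Gpr161 (-1.03, SE 0.29, adjusted p = 0.0420). Kif3a encodes a motor subunit that builds cilia. MGRN1, TULP3 and GPR161 are known as restraints on the pathway: a ubiquitin ligase that lowers SMO at the surface, an adaptor that brings receptors into the cilium, and one such receptor, which keeps protein kinase A active.

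Mgrn1 was the steadiest of these, at 11.4, 11.99 and 9.60 FPKM in the libraries labelled cKO 1, 2 and 3, against 21.96, 22.6 and 22.1 FPKM in those labelled control 1, 2 and 3. It was called in all 17 alternatives. Gpr161 measured 4.76, 6.14 and 2.39 FPKM in the libraries labelled cKO, against 9.98, 10.3 and 8.45 FPKM in those labelled control. The groups did not overlap for either. Gpr161 lost its call without cKO 1 or any control library (adjusted p of 0.0786 to 0.127) and with median of ratios scaling (adjusted p = 0.0561). Tulp3 lost its call without any library except cKO 3 (adjusted p of 0.0524 to 0.0942) and with that scaling (adjusted p = 0.0630). Kif3a lost its call when cKO 1, cKO 2, control 2 or control 3 was left out (adjusted p of 0.0539 to 0.0577).

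Sufu, which encodes the cytoplasmic inhibitor that binds GLI proteins, measured 7.23, 8.42 and 9.94 FPKM in the libraries labelled cKO, against 13.6, 11.6 and 11.7 FPKM in those labelled control (-0.49, SE 0.18, adjusted p = 0.0900), and was called lower without cKO 3 (-0.59, adjusted p = 0.0454). It was at -0.30 with median of ratios scaling (adjusted p = 0.330) and at -0.34 in limma-voom (adjusted p = 0.293). Kif7, a ciliary kinesin of the pathway, was at -0.36 (SE 0.27, adjusted p = 0.375), and was called with the fibroblast marker term (-0.59, adjusted p = 0.0461). Kif7 was at -0.18 with median of ratios scaling (adjusted p = 0.634) and at -0.21 in limma-voom (adjusted p = 0.629). By role, 2 of 6 tested reception genes and 2 of 11 ciliary genes were lower, where 13.6% of all genes were. No gene was called, in either direction, among the 4 ligand-handling genes, the 9 kinase and turnover genes and the 7 reported targets (0 higher and 0, 1 and 1 lower at an unadjusted p under 0.05; 0, 2 and 1 higher by limma-voom). Those called higher without cKO 3 included, named after their values were seen, Disp1, Scube1 (0.96), Scube3 (1.60) and Mycn (1.21). Scube genes encode secreted proteins that help release the ligand, and Mycn is a cell cycle regulator reported as a target.

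The 9 genes did not share 1 profile across the 6 libraries. As the root mean square difference of centred log2(FPKM + 1), the closest pairs were Gli2 with Smo (0.22), Ptch1 with Smo (0.31), Ptch1 with Gli2 (0.33) and Gli1 with Hhip (0.35), and the farthest was Gli3 with Gas1 (1.58). Shh lay 0.57 from Ptch1, 0.79 from Gli1 and 0.80 from Hhip, wider gaps than that between Ptch1 and Gli1 (0.36). This measure grows with the size of a gene's swings, so flat genes lie close together. The root mean square departure from the gene's own mean was 1.01 for Shh, 0.67 for Gli1 and 0.50 for Ptch1. It was 0.36 for Smo and 0.29 for Gli2. Likeness of shape alone was not tested. Among 8223 other genes averaging 5 FPKM or more, the profile of Shh was nearest to those of Has3 (0.22), a hyaluronan synthase, Cracdl (0.27) and Wnt10b (0.30), a Wnt ligand of the placode. Ptch1 was nearest to Dapl1 (0.09), Vsig10 (0.11) and Fzd7 (0.14), a Wnt receptor. Gli1 was nearest to Nrp2 (0.05), a semaphorin co-receptor, Clmp (0.07), a cell adhesion molecule, and Itga8 (0.08), integrin α8. Boc was nearest to Fxr1 (0.05), an RNA-binding protein, Tcf12 (0.06), a transcription factor, and Grn (0.06), progranulin. These distances are over 6 libraries and describe likeness alone.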

How the data were processed

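RNA was sequenced from integrin α6-positive epidermal cells sorted at postnatal day 0. The authors deposited 1 table of FPKM values for 17025 genes, 1 column per library. Per the submitters' processing notes, the tools were fastp, HISAT2 and HTSeq and the build GRCm39. No source used here gives versions, annotation, gene filter or strand, so genes that overlap others are uncertain. Groups and replicate numbers came from the titles. FPKM steps gave whole fragments for 17024 genes (tolerance 1e-06).

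The comparison used limma 3.58.1 in R 4.3.3 on log2(FPKM + 1), group as the only term, with a mean-variance trend, over genes averaging 1 FPKM or more. Differences are labelled cKO minus labelled control and understate changes of low genes. The fit was run on simulated fragments with known changes. The simulation gave every gene the same added spread and set no library apart as cKO 3 was. It therefore does not show how the fit treats these libraries. Alternatives covered pseudocounts, filters, scaling, variance model, replicate block, limma-voom, a fibroblast marker term and each library left out; 2 that combine leaving out cKO 3 with another choice were added after seeing the data.

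The 9 genes, lists and tests were chosen with earlier results of these data known. Named genes are Ash2l, the 9, wider pathway genes called or central to it, the 3 nearest profiles of 4 of the 9, and markers that were abundant, called or at 0. The values of 1 wider pathway gene are not reported here. Figures used matplotlib 3.10.9.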

Additional observations from a re-analysis of the deposited data

How the results depend on the processing

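Gas1 was called in 14 of 17 alternatives, and Shh and Boc in 5 each; Gli1 and Gli2 were called in none and kept their direction. The 2 genes higher became 1 with a pseudocount of 0.1 or 0.01, a filter at 5 FPKM (8 of the 9 tested), no trend, the replicate block or the fibroblast marker term, and 0 with no filter (2 at an unadjusted p under 0.05). They became 4 without cKO 3 with median of ratios scaling, where 999 of 11673 genes were higher. There Hhip was called just inside the threshold (limma adjusted p = 0.0499), in a fit added after seeing the data. The 1 lower became 2 with the fibroblast marker term and 0 with no filter, median of ratios scaling, no trend, the replicate block or limma-voom (2 at an unadjusted p under 0.05 in each). It was 0 without cKO 3 with either that scaling or the marker term. With that scaling, no trend, the replicate block or limma-voom, 1941 to 2827 of all 11603 genes were lower at the unadjusted threshold. With no filter 1388 of 17025 genes were higher and 3413 lower at it. Leaving out 1 library gave 0 to 3 of the 9 genes higher and 0 to 1 lower. None was called without control 2 or control 3 (2 and 3 higher and 1 and 1 lower at an unadjusted p under 0.05). At that unadjusted threshold 993 of all 11542 genes were higher and 2288 lower without control 2. Without control 3 they were 1082 and 2289 of 11537. Over all genes 681 were called higher and 1576 lower, with 393 to 713 higher and 710 to 1453 lower when 1 library was left out. The pseudocount of 0.1 gave 645 higher and 1489 lower, and that of 0.01 gave 622 and 1439. With no filter 549 were higher and 1340 lower of 17025 genes. The filter at 5 FPKM gave 534 and 1148 of 8318, and no trend gave 649 and 1528. The lower calls were 2707 with the fibroblast marker term, 1034 in limma-voom and 1009 without cKO 3 with median of ratios scaling, against 929 and 999 higher in the last pair. The replicate block gave 432 higher and 893 lower, but the same-numbered libraries did not pair: their deviations from the group means correlated at -0.31, 0.08 and -0.26 over genes. Smo ranged from -0.054 to 0.43 when 1 library was left out, reversing without control 2 and without cKO 1 (-0.04), and Cdon reversed to 0.27 without cKO 3 with the fibroblast marker term. The cause of these shifts was not tested. The lowest fragment number in any library was 147 for Shh, 245 for Hhip and 268 for Gli3. The part of depth in these shifts was not tested.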

Other observations

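The fragments recovered from the FPKM steps held more even than odd values at low levels in the libraries labelled control. Among genes with 11 to 40 fragments, 46.2, 42.0 and 51.9% were odd in the libraries labelled cKO 1, 2 and 3, and 19.1, 20.6 and 24.8% in those labelled control 1, 2 and 3. With 41 to 200 fragments the shares were 50.4 to 51.5% in the cKO-labelled libraries, against 33.3 to 37.8% in the control-labelled ones. Above that and up to 1000 fragments they were 49.0 to 52.9% in the cKO-labelled libraries, against 48.8 to 49.5% in the control-labelled ones. Shh in the library labelled control 2, with 147 fragments, is the only value of the 9 genes in the range up to 200.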
